A study of Mus musculus with 8 samples.

Results

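The enzymes described here add and finish the sugars of mucin-type O-glycans and of the outer ends of other glycans. They were taken as every gene whose symbol begins with Galnt, Gcnt, B3gnt, B3galt, B4galt, B4galnt, C1galt, St3gal, St6gal, St8sia, Fut or Chst, each represented by the brightest of its probe sets that carry exactly 1 symbol. This gave 83 genes of 17097 tested, in 13 classes. The rule used names and mean signal over all arrays, not the difference between genotypes, but the enzymes were chosen with earlier results of these data known. One of the 83, Fut4-ps1, is a pseudogene that the name rule takes in.

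Transcripts were measured in the ileum of Slc51a knockout mice (n = 4) and wild type mice (n = 4) on Affymetrix 3' expression arrays, 1 array per sample. All were males of C57BL/6 background, about 2 months old and fasted for 4 h before the tissue was taken. Slc51a encodes the alpha subunit of the organic solute transporter, which carries bile acids out of the ileal epithelial cell into the blood, and the comparison asked which transcripts differ when it is missing. The knockout is not described in the labels as limited to a cell type, and pooling of animals is not mentioned. Values are normalised log2 probe set signals, on which a difference of 1 is a doubling. A difference is the knockout mean minus the wild type mean, given with its standard error (SE), and adjusted p values are from limma over all 17097 genes with a threshold of 0.05. Signals of different probe sets are not on a common scale per transcript, so levels were compared only within a gene. Precision is limited by the use of 4 arrays in each genotype.

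Mucin-type glycosylation starts when a GALNT enzyme links N-acetylgalactosamine (GalNAc) to serine or threonine. C1GALT1, with its chaperone COSMC, adds galactose to make core 1, and GCNT enzymes add the N-acetylglucosamine (GlcNAc) branch of core 2. The branches are then lengthened with GlcNAc and galactose and capped with sialic acid, fucose, GalNAc or sulfate. In the intestine such glycans cover the secreted mucins and the glycocalyx of the epithelium, and core 2 branches on leukocytes carry ligands of selectins.

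Slc51a read 4.67, 4.50, 4.68 and 4.56 in knockout ileum and 11.36, 11.41, 11.29 and 11.37 in wild type ileum. The difference was -6.75 (SE 0.05, adjusted p = 4.86e-14), as the labels state. Array medians ran from 4.56 to 4.60, the lowest correlation between arrays of the same genotype was 0.996, and the highest between genotypes was 0.992. Hybridization controls were lowest in knockout replicate 3, wild type replicate 2 and knockout replicate 4. The fit without these 3 arrays, given below, kept knockout replicates 1 and 2 and wild type replicates 1, 3 and 4. With so few arrays a call can be lost in it without a smaller difference.

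Transcripts that mark several cell types also differed with genotype, beside 17.1% of all genes higher in knockout and 12.9% lower. Of the enterocyte markers, 0 of 12 were higher and 10 lower in knockout, with a mean log2 level of 9.66 to 9.81 in knockout samples and 10.24 to 10.45 in wild type samples. Of the T lymphocyte markers, 0 of 13 were higher and 11 lower, with mean levels of 5.26 to 5.49 in knockout and 6.31 to 6.46 in wild type. Of the B lymphocyte markers, 0 of 9 were higher and 6 lower (5.61 to 6.07 in knockout, 6.20 to 6.63 in wild type). All 10 smooth muscle markers were lower (8.33 to 8.59 in knockout, 9.10 to 9.51 in wild type). Goblet cell markers were mixed, with 2 of 11 higher and 2 lower (9.83 to 9.96 in knockout, 9.86 to 10.01 in wild type). Of 12 crypt and proliferation markers 7 were higher and 2 lower (8.28 to 8.45 in knockout, 8.07 to 8.18 in wild type). The other lists, as higher and lower, gave 0 and 1 of 4 for Paneth cells, 0 and 4 of 9 for tuft cells, 4 and 2 of 11 for enteroendocrine cells, 2 and 4 of 11 for myeloid cells, 1 and 1 of 10 for fibroblasts, and 1 and 5 of 10 for endothelium. The Paneth marker that passed was Lyz2, named after its values were seen, which is also on the myeloid list. In bulk tissue, fewer cells of a type and less RNA per cell cannot be told apart. The part of these shifts in the enzyme differences given here was not tested.

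Among the 83 enzyme genes, 25 passed the threshold (30.1%), against 30.0% of all genes. In knockout, 14 were higher, where 17.1% of all genes were, and 11 were lower, where 12.9% of all genes were. The median difference was -0.01, and 0.01 over all genes, while the median absolute difference was 0.10 in both. The groups did not overlap for 25 of the enzymes, against 30.7% of all genes. A difference of at least 1.5-fold was reached by 4 of them (4.83% of all genes), Gcnt1, B4galt4, St8sia4 and B4galnt1, and Gcnt1 alone reached 2-fold (1.11% of all genes). As a family, then, the genes were called about as often as other genes, and the results lie in single enzymes. In 29 of the 83 genes both genotypes were under 4.58, the middle signal of the whole array, and St6galnac4 was the only one of those past the threshold.

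**Figure D1:**
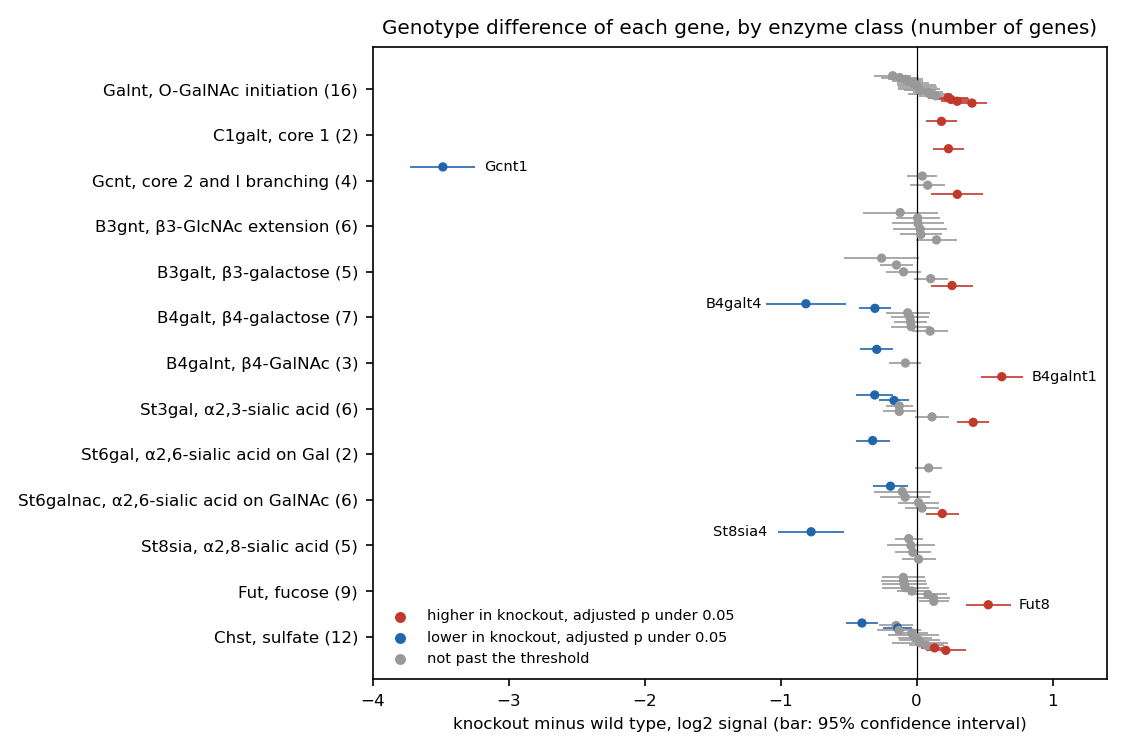
Difference of each of the 83 genes, knockout minus wild type on the log2 scale (horizontal axis), by enzyme class (vertical axis), with 95% confidence intervals as bars and the call as colour. Gcnt1 lies at -3.48, far to the left of the other genes, which lie between -0.81 and 0.63.

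Gcnt1, which makes the core 2 branch in leukocytes and many other cells, had by far the largest difference of the 83 genes, falling in knockout to the level of the dimmer probe sets. Because the results turn on it, the 300 bases around its 3 annotated starts (250 before to 50 after each) are shown, from RefSeq on GRCm38.p6, at chr19:17372795-17373094, chr19:17356618-17356917 and chr19:17339456-17339755, all on the minus strand. Each is given 5′ to 3′ along the gene, and capitals mark a GT box, GGGNGTGG, the kind of site that KLF factors bind.
Gcnt1 start 1: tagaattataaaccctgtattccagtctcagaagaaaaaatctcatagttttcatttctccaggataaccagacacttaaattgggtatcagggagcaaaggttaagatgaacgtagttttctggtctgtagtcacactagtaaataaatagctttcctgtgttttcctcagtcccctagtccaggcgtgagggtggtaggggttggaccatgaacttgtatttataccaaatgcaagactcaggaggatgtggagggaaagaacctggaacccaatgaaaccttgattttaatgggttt
Gcnt1 start 2: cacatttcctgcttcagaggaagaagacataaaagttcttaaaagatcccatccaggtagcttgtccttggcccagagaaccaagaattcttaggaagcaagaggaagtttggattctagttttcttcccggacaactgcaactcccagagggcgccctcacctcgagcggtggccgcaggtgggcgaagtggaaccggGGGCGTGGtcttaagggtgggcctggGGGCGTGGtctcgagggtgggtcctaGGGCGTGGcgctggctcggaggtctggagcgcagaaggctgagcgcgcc
Gcnt1 start 3: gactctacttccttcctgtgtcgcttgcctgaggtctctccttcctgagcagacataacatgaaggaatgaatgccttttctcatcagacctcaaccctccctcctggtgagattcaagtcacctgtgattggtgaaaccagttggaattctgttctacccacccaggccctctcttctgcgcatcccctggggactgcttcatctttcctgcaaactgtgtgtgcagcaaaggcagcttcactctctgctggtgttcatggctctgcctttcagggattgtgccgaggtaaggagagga
The GT box occurred 3 times in the window of start 2 and not in the other windows of Gcnt1. It was chosen after that sequence had been read, so its presence there is a description only. On either strand it occurs in 17.6% of all 32817 such windows and in 22.2% of the 81 windows of the 63 enzyme genes that were matched. The FXR site IR1, an inverted repeat of AGGTCA with 1 base between, was in 0 of the 81 windows (0.00914% of all). The NRF2 site TGACNNNGC was in 12.3% (12.4% of all), the STAT site TTCNNNGAA in 4.94% (8.29% of all) and the HNF4 site CAAAGTCCA in 1.23% (0.475% of all). None of these 4 had its letters in the Gcnt1 windows, which says nothing of the factors.

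In knockout ileum Gcnt1 read 4.39, 4.50, 4.39 and 4.83, against 8.19, 8.11, 7.89 and 7.85 in wild type ileum. Every knockout sample lay at least 3 log2 units below every wild type sample, and the knockout mean, 4.53 ± 0.21 (SD, n = 4), was under the median of all probe sets, while the wild type mean was 8.01 ± 0.17 (SD, n = 4). The difference was -3.48 (SE 0.11, adjusted p = 4.17e-08), with a 95% confidence interval of -3.72 to -3.24, so that the signal in knockout was 8.94% of wild type. It was the 5th largest fall of all 17097 genes, Slc51a included. A separate Gcnt1 probe set, whose identifier marks alternative transcripts of the same gene, also fell, with 4.05 in knockout and 4.67 in wild type (difference -0.62, SE 0.08, adjusted p = 0.000172 in a fit over all probe sets). Its mean was under the array median of 4.58 in knockout and just over it in wild type. Averaging the 2 probe sets gave -2.05. Knockout replicate 4, the highest of the knockout samples for Gcnt1, was also the highest of them in the T and B lymphocyte marker levels (5.49 and 6.07). This was not particular to lymphocytes. The same sample was the highest of them in crypt and endothelium markers. It was the lowest in enterocyte, Paneth, enteroendocrine, smooth muscle and fibroblast markers, and neither in goblet, tuft and myeloid markers. In the fit with array weights it had the lowest weight of all arrays, 0.595. Among wild type samples, replicate 1, the highest for Gcnt1, had the highest T lymphocyte level (6.46) and the lowest B lymphocyte level (6.20), and replicate 4, the lowest for Gcnt1, had 6.43 and 6.47. Gzma, a granzyme of cytotoxic lymphocytes, was named after its values were seen, for the largest fall of the T lymphocyte list. It read 7.64, 7.51, 7.14 and 8.23 in knockout and 10.69, 10.40, 10.36 and 10.66 in wild type. The part of the lymphocytes in the Gcnt1 difference was not tested.

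Gcnt3, the mucin-type enzyme of the same class, which makes core 2 and core 4 branches and is known from mucus-producing epithelium, moved the other way. It read 9.31, 9.15, 9.37 and 8.97 in knockout and 8.80, 9.01, 8.82 and 8.97 in wild type. Knockout replicate 4 lay among the wild type samples, so the groups overlapped, and the rise was 0.30 (SE 0.09, adjusted p = 0.0228). A further Gcnt3 probe set rose by 0.50 (7.75 in knockout, 7.25 in wild type, SE 0.06, adjusted p = 8.03e-05). The call of the brighter probe set was lost without knockout replicate 1 or 3 or wild type replicate 1 or 3 (adjusted p = 0.0635 to 0.0653), and after renormalising by quantile (0.0635) or cyclic loess (0.0905). Gcnt2, the I-branching enzyme, and Gcnt7 were dim in both genotypes, with differences of 0.08 (adjusted p = 0.359) and 0.04 (adjusted p = 0.593). These 2 were named after their values were seen.

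**Figure D2:**
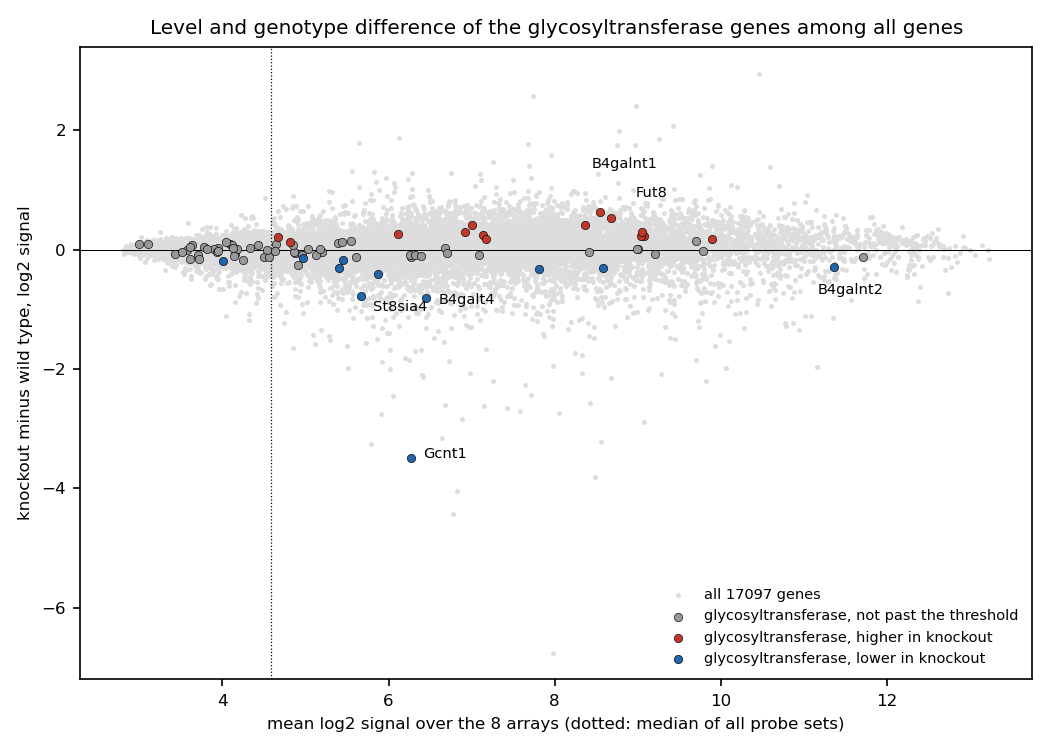
Mean log2 signal over the 8 arrays (horizontal axis) against the difference, knockout minus wild type on the log2 scale (vertical axis), for all 17097 genes in light grey and for the 83 enzymes in colour by call. Most enzymes lie inside the cloud of other genes, and Gcnt1 lies among the few genes under -3.

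Most of the initiating GALNT enzymes did not pass, and those that did were slightly higher in knockout. Of 16 Galnt genes 4 were higher (17.1% of all genes were), 0 lower and 12 did not pass, with a median difference of 0.02, and 7 were below the median level in both genotypes. Galnt12, an initiating transferase known from the digestive tract, read 8.49, 8.56, 8.57 and 8.68 in knockout and 8.14, 8.17, 8.21 and 8.14 in wild type. All knockout samples were above all wild type samples, and the rise was 0.41 (SE 0.05, adjusted p = 0.000152). Galnt2, a broadly expressed initiating transferase, read 6.98, 7.07, 7.02 and 7.19 in knockout and 6.82, 6.76, 6.70 and 6.79 in wild type. Its groups did not overlap either, its rise was 0.30 (SE 0.05, adjusted p = 0.00175), and its 3 probe sets rose by 0.30, 0.33 and 0.37. Galnt10, which acts on peptides that already carry GalNAc, averaged 7.27 ± 0.08 in knockout and 7.02 ± 0.09 in wild type (SD, n = 4 each), a rise of 0.25 (adjusted p = 0.00772). Averaging its 2 probe sets gave 0.13 (adjusted p = 0.0864). Galnt1, named after its values were seen because it is the 4th, averaged 9.19 in knockout and 8.96 in wild type with overlapping groups (0.23, adjusted p = 0.0204). That call was lost without knockout replicate 4 or wild type replicate 3 or 4 (adjusted p = 0.0530 to 0.0632), with cyclic loess (0.0964) and when its probe sets were averaged (0.207).

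Among the Galnt genes that did not pass, Galnt7, which also prefers GalNAc-bearing peptides, averaged 9.78 in knockout and 9.81 in wild type, with a 95% confidence interval of the difference of -0.14 to 0.09. Galnt4, of the same kind, averaged 9.77 in knockout and 9.63 in wild type (0.14, adjusted p = 0.0781). Its knockout samples, from 9.69 to 9.91, were all above its wild type samples, from 9.59 to 9.65. It passed after median centring (adjusted p = 0.0496) and with a trended, robust variance prior (0.0457).

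Both core 1 genes were higher in knockout (17.1% of all genes were, and 25.2% of those at or above the median level, where both lie). C1galt1, the core 1 synthase, read 9.09, 9.13, 9.21 and 9.23 in knockout and 8.95, 8.91, 8.87 and 8.98 in wild type. The groups were apart and the rise was 0.23 (SE 0.05, adjusted p = 0.00444). C1galt1c1, which encodes the chaperone COSMC, lay between 9.92 and 10.03 in knockout samples and read 9.90, 9.70, 9.81 and 9.81 in wild type. Here wild type replicate 1 came close to the lowest knockout sample without crossing it, and the rise was 0.18 (SE 0.05, adjusted p = 0.0208). The C1galt1 call rested on its brightest probe set: the other 2 gave -0.06 and -0.11 and did not pass, their mean with it gave 0.02 (adjusted p = 0.795), and the fit without the 3 arrays of lowest hybridization controls gave an adjusted p of 0.0946. The C1galt1c1 call was lost with quantile normalisation (adjusted p = 0.114), cyclic loess (0.245), without knockout replicate 2 or 3 or wild type replicate 2 (0.0501 to 0.0575) and without those 3 arrays (0.0872).

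The enzymes that lengthen branches with GlcNAc and galactose held a B3gnt class in which none passed and a B4galt class with 2 falls. None of the 6 B3gnt genes passed (30.0% of all genes did), and their differences ran from -0.12 to 0.15. B3gnt3, which extends core 1, averaged 6.69 in knockout and 6.67 in wild type, and B3gnt5, which starts lacto-series glycolipids, averaged 5.54 in knockout and 5.66 in wild type. Their intervals, -0.17 to 0.22 and -0.40 to 0.15, leave room for changes of that size. Of 5 B3galt genes 1 was higher (17.1% of all genes were). It was B3galt4, the ganglioside GM1 synthase, with 6.38, 6.31, 6.03 and 6.26 in knockout and 5.96, 6.02, 5.95 and 6.01 in wild type. Knockout replicate 3 nearly touched the wild type samples, and the rise was 0.26 (SE 0.07, adjusted p = 0.0169). B3galt6, which builds the linker of proteoglycan chains, did not pass (-0.10, adjusted p = 0.249).

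B4galt4, a galactosyltransferase known in human for its preference for sulfated GlcNAc, read 6.30, 5.84, 5.97 and 6.08 in knockout and 6.78, 6.91, 6.55 and 7.21 in wild type. No sample crossed over, and the fall was -0.81 (SE 0.13, adjusted p = 0.00084), to 56.9% of wild type. B4galt1, the main galactosyltransferase of N-acetyllactosamine chains, read 8.49, 8.36, 8.40 and 8.47 in knockout and 8.74, 8.81, 8.63 and 8.76 in wild type. It too was lower in every knockout sample than in any wild type sample (-0.31, SE 0.05, adjusted p = 0.00117). Of the 7 B4galt genes these 2 were lower (12.9% of all genes were), and the other 5 did not pass. Among those 5, B4galt6, a lactosylceramide synthase, gave -0.07 (95% confidence interval -0.23 to 0.10). Both B4galt4 and B4galt1 have a single probe set here.

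The B4galnt pair that passed moved in opposite directions. B4galnt1, which makes the gangliosides GM2 and GD2, read 8.79, 8.87, 8.76 and 9.01 in knockout and 8.16, 8.39, 8.19 and 8.19 in wild type. The groups were well apart, and the rise of 0.63 (SE 0.07, adjusted p = 6.67e-05), to 154% of wild type, was the largest rise of the 83 genes. A dim other probe set of B4galnt1 gave 0.07 and did not pass. B4galnt2, which caps chains with GalNAc to form the Sda antigen of the gut, read 11.20, 11.35, 11.19 and 11.14 in knockout and 11.54, 11.46, 11.50 and 11.54 in wild type. It was lower in all knockout samples (-0.29, SE 0.05, adjusted p = 0.00178), and its other probe set fell by 0.33.

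**Figure D3:**
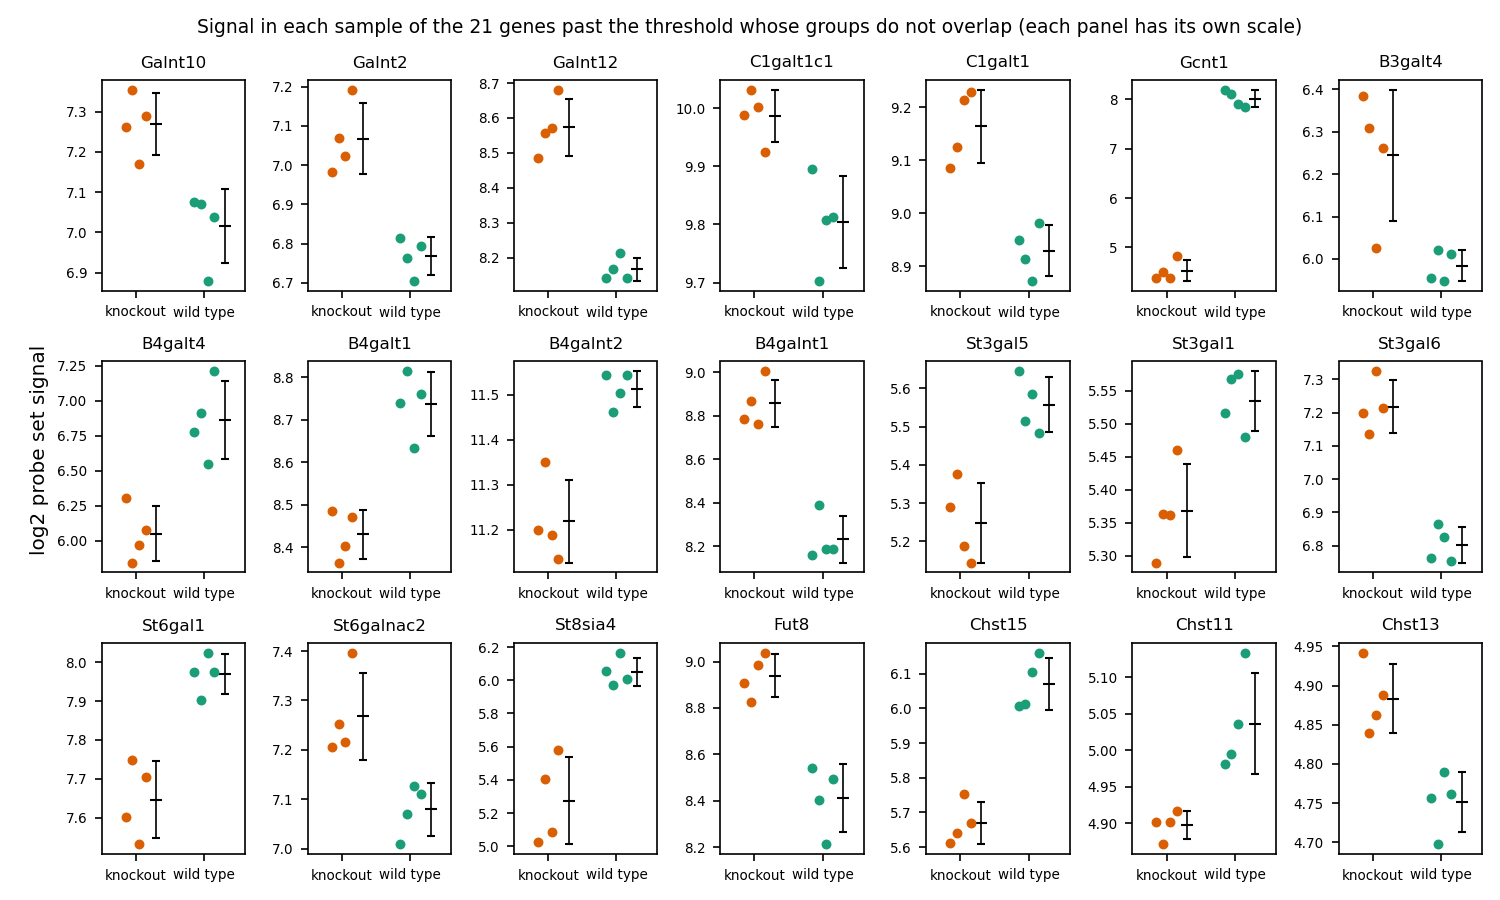
Log2 signal in each of the 4 knockout and 4 wild type samples (points, vertical axis, own scale per panel) with mean and SD, for the 21 genes past the threshold whose groups do not overlap and whose brighter group is at or above the median probe set. Gcnt1 drops to between 4.39 and 4.83 in knockout while its wild type samples lie between 7.85 and 8.19.

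The 19 sialyltransferases held 2 rises and 5 falls, spread over their 4 classes. These are 10.5% and 26.3% of them, against 17.1% higher and 12.9% lower of all genes. Among 6 St3gal genes, which add alpha-2,3-linked sialic acid, St3gal6 rose while St3gal5 and St3gal1 fell. St3gal6, which sialylates N-acetyllactosamine ends, read 7.20, 7.14, 7.32 and 7.21 in knockout and 6.76, 6.86, 6.83 and 6.75 in wild type. The groups did not overlap and the rise was 0.42 (SE 0.05, adjusted p = 0.000163). Its 5 probe sets did not move as 1: 2 rose by 0.42 and 0.34, 1 fell by 0.47 (4.47 in knockout, 4.94 in wild type) and 2 dim ones gave 0.05 and 0.01, and their mean was 0.07 (adjusted p = 0.347). St3gal5, the synthase of ganglioside GM3, averaged 5.25 ± 0.10 in knockout and 5.56 ± 0.07 in wild type (SD, n = 4 each), with a fall of -0.31 (adjusted p = 0.00291) and no overlap. Its dim other probe set gave -0.10 and did not pass. St3gal1, which caps core 1, averaged 5.37 in knockout and 5.53 in wild type (-0.17, adjusted p = 0.0270). Its call was lost without knockout replicate 1, 2 or 3 or wild type replicate 2 or 3 (adjusted p = 0.0541 to 0.0761) and with quantile normalisation, median centring, averaged probe sets, the trended prior and the 3 arrays left out (0.0529 to 0.0826). St3gal4, which sialylates lactosamine and core 1 ends, read between 11.59 and 11.70 in knockout and between 11.72 and 11.82 in wild type (-0.13, adjusted p = 0.0554). It passed without dim genes (0.0453), with the probe sets of each gene averaged (0.0363), with the trended prior (0.00819) and after quantile (0.00457) or cyclic loess (0.00297) normalisation.

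St6gal1, which adds the alpha-2,6-linked sialic acid of N-glycans, read 7.60, 7.75, 7.53 and 7.71 in knockout and 7.98, 7.90, 8.02 and 7.98 in wild type. Every knockout sample was lower, by -0.32 between the means (SE 0.06, adjusted p = 0.00134), and its other probe set gave -0.19 and did not pass. St6gal2 gave 0.09 and did not pass. Of 6 St6galnac genes, which sialylate GalNAc itself, St6galnac2 averaged 7.27 in knockout and 7.08 in wild type (0.19, adjusted p = 0.0233), and the dim St6galnac4, named after its values were seen, 3.91 in knockout and 4.10 in wild type (-0.19, adjusted p = 0.0269). The St6galnac2 call was lost without knockout replicate 4 or wild type replicate 1 or 2 (0.0517 to 0.0675), with cyclic loess (0.0683), with the mean of its probe sets (0.0647) and without the 3 arrays of lowest hybridization controls (0.156). The St6galnac4 call was lost without knockout replicate 1, 2 or 3 or wild type replicate 1 or 2 (0.0517 to 0.0752) and with the mean of its probe sets (0.175). St6galnac6, which acts on gangliosides, gave -0.11 and did not pass.

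St8sia4, which builds polysialic acid and is known from nerve and leukocytes, read 5.03, 5.41, 5.09 and 5.58 in knockout and 6.06, 5.97, 6.17 and 6.01 in wild type. The groups did not overlap, although knockout replicates 2 and 4 were nearer to wild type than replicates 1 and 3, and the fall was -0.78 (SE 0.11, adjusted p = 0.000349), to 58.4% of wild type. A dim other probe set gave -0.05 and did not pass. As with Gcnt1, knockout replicate 4 was the highest knockout sample, and it had the highest lymphocyte marker levels of them. It was the extreme knockout sample for several other cell types too, as given for Gcnt1. Among wild type samples, replicate 3, the highest for St8sia4, had the lowest T lymphocyte level (6.31) and the highest B lymphocyte level (6.63). The part of the lymphocytes in the St8sia4 difference was not tested. Of the other St8sia genes, St8sia6 gave -0.06 and did not pass, although another of its probe sets fell by 0.35 (adjusted p = 0.00519) and the mean of its probe sets gave -0.19 (adjusted p = 0.00788).

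Among 9 fucosyltransferases Fut8 alone passed (11.1%, against 30.0% of all genes). Fut8, which adds the core fucose of N-glycans, read 8.91, 8.82, 8.98 and 9.04 in knockout and 8.54, 8.40, 8.21 and 8.49 in wild type. All knockout samples were above all wild type samples, with a rise of 0.53 (SE 0.08, adjusted p = 0.000357), to 144% of wild type. Fut4, which makes Lewis x, averaged 7.05 in knockout and 7.13 in wild type (-0.08, 95% confidence interval -0.25 to 0.09). Fut2, which makes the H antigen of the gut surface and is named here after its values were seen, was dim, with 4.10 in knockout and 3.98 in wild type (0.12, adjusted p = 0.114).

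Of 12 Chst sulfotransferases 2 were higher, 2 lower and 8 did not pass, so that 33.3% passed, against 30.0% of all genes. Chst15, which adds the second sulfate of chondroitin sulfate E, read 5.61, 5.64, 5.75 and 5.67 in knockout and 6.01, 6.01, 6.10 and 6.16 in wild type. The groups were apart, the fall was -0.40 (SE 0.05, adjusted p = 0.000214), and a dimmer probe set fell by 0.27. Chst11 and Chst13, both chondroitin 4-O-sulfotransferases, differed by -0.14 (adjusted p = 0.0473) and 0.13 (adjusted p = 0.0463). Leaving out any 1 of knockout replicates 1 to 4 or wild type replicates 2 to 4 ended the Chst11 call (0.0561 to 0.132), as did quantile, median and cyclic loess normalisation, averaged probe sets, the trended prior and the fit without the 3 arrays of lowest hybridization controls (0.0852 to 0.130). Leaving out any 1 array except knockout replicate 2 ended that of Chst13 (0.0623 to 0.116), as did array weights (0.0506), the trended prior and the fit without the 3 arrays (0.211). Chst1, a keratan sulfate sulfotransferase named after its values were seen, averaged 4.77 in knockout and 4.56 in wild type with overlapping groups (0.21, adjusted p = 0.0290). That call was lost without knockout replicate 3 or 4 or wild type replicate 2 or 3 (0.0694 to 0.0843) and without the 3 arrays (0.334). Chst14, a dermatan sulfotransferase, gave 0.02 and did not pass.

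How far a call rests on a single probe set could be read for 17 of the 25 genes. For 6 of them, Gcnt1, Gcnt3, Galnt2, B4galnt2, Chst15 and St3gal6, another probe set passed in the same direction, and for St3gal6 1 also passed in the opposite direction. For 11 no other probe set passed, and in 4 of those, Galnt1, Galnt10, C1galt1 and St6gal1, another was at or above the median level. The remaining 8 genes have 1 probe set each. Of the genes that did not pass, 6 had another probe set that did: Galnt3, Galnt4, Galnt15, B4galt2, St8sia2 and St8sia6.

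**Figure D4:**
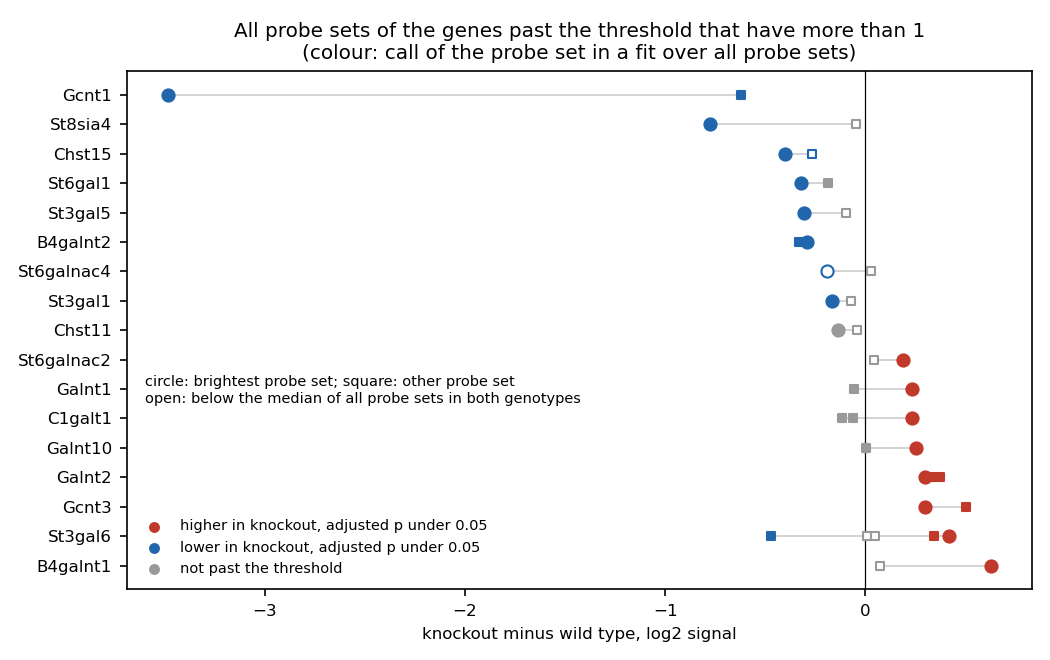
Difference, knockout minus wild type on the log2 scale (horizontal axis), of every probe set of the 17 genes past the threshold that have more than 1 (vertical axis), with circles for the brightest and squares for the others, open where both genotypes are below the median level, coloured by the call of the probe set in a fit over all probe sets. Gcnt1 is at -3.48 and -0.62, and the St3gal6 probe sets lie on both sides of 0.

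Slc51a lies on chromosome 16 with 5 of the enzyme genes, by the order of tested genes in RefSeq. St6gal1 is separated from it by 52 tested genes, B4galt4 by 67, B3gnt5 by 92, St3gal6 by 147 and B3galt5 by 296. The 3 that passed were St6gal1 and B4galt4, which fell, and St3gal6, which rose. Among the nearest 100 tested genes on each side of Slc51a 78 of 200 passed (39%), and among the nearest 50 on each side 43 of 100 (43%). On all of chromosome 16 besides Slc51a 180 of 567 passed (31.7%), and on the other chromosomes 30.0% of 16485. The nearest 50 hold none of the enzymes, and St3gal6 and B3galt5 lie outside the nearest 100. The origin of the DNA that flanks the inactivated gene is not stated by the labels, and the part of the position near Slc51a in these differences was not tested.

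Genes for the supply of donors that passed were mostly higher in knockout. Their list was chosen with earlier results of these data known. Of 29 measured genes that make or carry sugar and sulfate donors 15 were higher, 2 lower and 12 did not pass, with a median difference of 0.17 against 0.01 over all genes, and all 29 were at or above the median level, where 43.2% of genes passed and 25.2% were higher. Gmds, the first enzyme from GDP-mannose to GDP-fucose, read 10.32, 10.26, 10.38 and 10.43 in knockout and 9.89, 9.60, 9.41 and 9.49 in wild type. The knockout samples were all higher, by 0.75 between the means (SE 0.09, adjusted p = 0.000135). Nans, the sialic acid synthase, read 9.08, 9.01, 9.05 and 9.07 in knockout and 8.45, 8.44, 8.38 and 8.48 in wild type. Its groups were far apart next to their spread (0.62, SE 0.04, adjusted p = 4.96e-06). Pgm3, of UDP-GlcNAc synthesis, rose by 0.42 (adjusted p = 0.000182). Fpgt, which recycles free fucose into GDP-fucose, fell by 0.51 (adjusted p = 0.000332), and Uap1l1, related to the last enzyme of UDP-GlcNAc synthesis and named after its values were seen, fell by 0.36 (adjusted p = 0.00476). The Uap1l1 call was lost without the 3 arrays of lowest hybridization controls (0.0779).

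Genes of the route to CMP-sialic acid were singled out of the donor list after their values were seen, so their shared direction is a description only, beside 25.2% of genes at or above the median level that were higher. Gne, the entry enzyme, rose by 0.38, Nans by 0.62, Nanp, the phosphatase, by 0.17, Cmas, which activates sialic acid, by 0.22 and Slc35a1, which carries CMP-sialic acid into the Golgi, by 0.17. The Nanp call was lost without knockout replicate 1, 2 or 4 or wild type replicate 1, 2 or 3 (adjusted p up to 0.0928). That of Cmas was lost without knockout replicate 1 or wild type replicate 3 or 4 (0.0589 to 0.0641), and that of Slc35a1 without knockout replicate 1 or 3 or wild type replicate 1 or 2 (0.0556 to 0.0640). All 3 were lost with cyclic loess (0.217, 0.124 and 0.164) and without the 3 arrays (0.152, 0.0537 and 0.159), and Nanp and Slc35a1 with quantile normalisation (0.0858 and 0.0893). Without the 3 arrays the differences were 0.16 for Nanp, 0.27 for Cmas and 0.15 for Slc35a1, so that of Cmas was not smaller there.

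**Figure D5:**
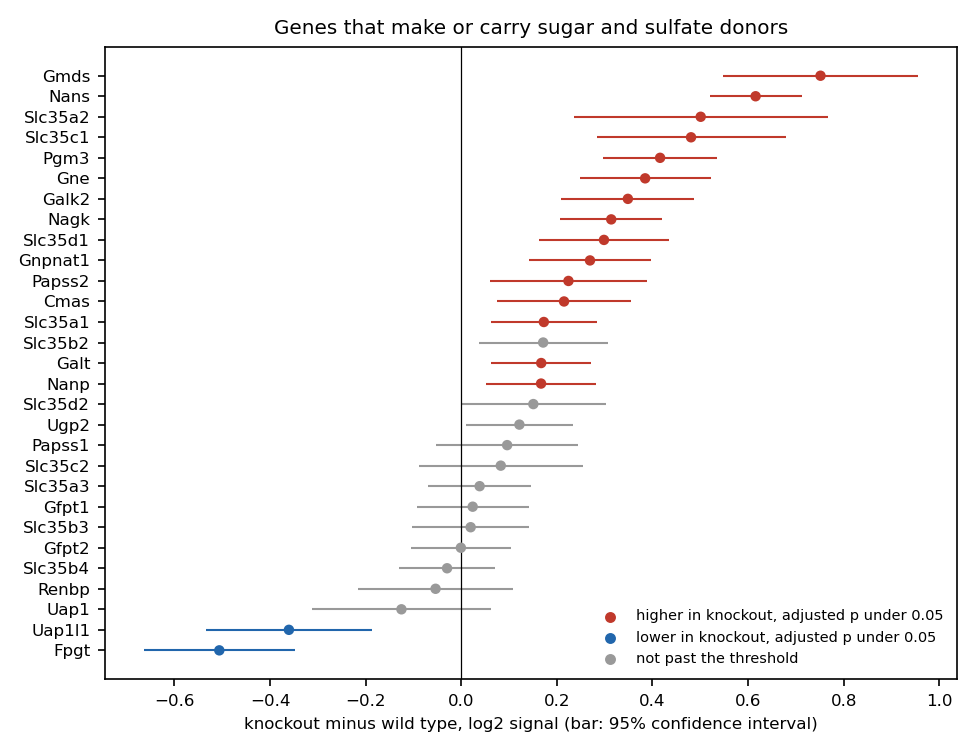
Difference, knockout minus wild type on the log2 scale (horizontal axis), of the 29 genes that make or carry sugar and sulfate donors (vertical axis), with 95% confidence intervals as bars and the call as colour. The points run from -0.51 for Fpgt to 0.75 for Gmds, with 15 genes past the threshold on the right and 2 on the left.

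Of 12 other glycosyltransferases 1 was higher and 2 lower, so that 25% passed, against 30.0% of all genes. Mgat4b, which branches N-glycans, rose by 0.34 (9.49 in knockout, 9.15 in wild type, adjusted p = 0.000208). Ugcg, which makes glucosylceramide, fell by 0.51 (8.28 in knockout, 8.80 in wild type, adjusted p = 0.000244), and B3galnt1, the dim globoside synthase, also by 0.51 (4.01 in knockout, 4.52 in wild type, adjusted p = 0.00252). Of 11 genes that remove sugars or sulfate 2 were higher and 3 lower. Here 45.5% passed, against 30.0% of all genes and 43.2% of those at or above the median level. Sulf2, which takes sulfate off heparan sulfate at the cell surface, read 10.02, 9.90, 9.97 and 9.93 in knockout and 9.13, 9.10, 9.05 and 9.15 in wild type. The groups were wide apart, with a rise of 0.85 (SE 0.05, adjusted p = 9.2e-07). Fuca2, a secreted fucosidase, fell by 0.61 (9.13 in knockout, 9.74 in wild type, adjusted p = 1.69e-05). Sulf1, the dim relative of Sulf2, fell by 0.30 (adjusted p = 0.00604), which did not pass when its probe sets were averaged (0.134) or the 3 arrays of lowest hybridization controls were left out (0.0976). Galns, a lysosomal sulfatase, rose by 0.16 (adjusted p = 0.0274), a call lost without knockout replicate 2 or 3 or wild type replicate 1 or 3 (0.0588 to 0.0843), with quantile (0.103) or cyclic loess (0.140) normalisation, with the trended prior (0.0534) and without the 3 arrays (0.0667).

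Of the 12 measured genes for mucins and other heavily O-glycosylated acceptors 0 were higher, 3 were lower and 9 did not pass. Thus 25% passed, against 30.0% of all genes, and the median difference was -0.11. Muc13, a transmembrane mucin of the epithelial surface, averaged 11.56 ± 0.06 in knockout and 11.96 ± 0.09 in wild type (SD, n = 4 each), a fall of -0.41 (adjusted p = 0.000248). Muc3, a transmembrane mucin of enterocytes, averaged 12.13 in knockout and 12.40 in wild type (-0.26, adjusted p = 0.00470), and the call was lost without the 3 arrays of lowest hybridization controls (0.0931). Cd164, a sialomucin, averaged 11.26 in knockout and 11.48 in wild type (-0.22, adjusted p = 0.00265). The enterocyte markers were lower as well, as given above, and their part in the fall of the membrane mucins was not tested. Muc2 was not analysed here.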

How the data were processed

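Ileal RNA of 4 knockout and 4 wild type mice, numbered as biological replicates in the labels, was labelled from 250 ng and run on Affymetrix 3' arrays, per the labels' protocols. The values are the deposited log2 probe set signals, made with RMA per the submitters' processing notes. Its software and version, array strips and scan dates are not given in the sources used here. This method compresses low signals, so folds near the floor are understated. No detection calls were used. Whether the Slc51a probe set covers the deleted sequence was not given either.

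Of 45141 probe sets, 104 were controls, 28898 had 1 gene symbol in the platform annotation, 551 several and 15588 none listed. Symbols were checked by Entrez identifier against RefSeq of GRCm38.p6 (28689 matched, 0 changed). Each gene took its brightest probe set over the 8 arrays, giving 17097 genes with no filter on dim ones. The 83 enzymes came from 154 probe sets, 36 genes having 1 and 47 more than 1. For 3 of the chosen probe sets the identifier marks possible binding to other transcripts, and for 9 alternative transcripts of the same gene.

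The genotype difference was fitted with limma (version 3.58.1, under R 4.3.3; lmFit, eBayes, 2-sided, Benjamini-Hochberg over all genes, threshold 0.05). Probe sets of a gene were fitted separately over all probe sets. The enzymes, the 4 pathway lists and the 12 marker lists were chosen with earlier results of these data known. Named genes were Slc51a, up to 24 enzymes that passed, did not overlap between genotypes and had at least 1 genotype reaching the median probe set signal (21 met this), the 2 brightest of each class, and up to 4 of each pathway list with the smallest adjusted p. Others, such as Gzma, Nagk and Papss2, were named after their values were seen, though this is not said at every mention. The fit was tested on simulated data for the same comparison of 17097 genes, in which only a small part of the genes was changed. It recovered 28% of the changes of 0.25 log2 units, 84% of those of 0.5, 98% of those of 1 and 100% of those of 2, with 10 false calls. Recovery can differ where more genes change, as here. The alternatives were leaving out dim genes, renormalising by quantile, median centring or cyclic loess, averaging the probe sets of each gene, a trended robust prior, array weights, a replicate block, leaving out each array, a threshold of 0.01 and a fold of 1.5. The fit without 3 arrays, the use of other probe sets and the alternatives for the pathway lists were added after the data were seen. Summaries used Python 3.11.15 and pandas 2.3.3, figures matplotlib 3.10.9.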

Additional observations from a re-analysis of the deposited data

Results flagged for a closer look

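In 6 groups of 4 samples 1 sample stood apart from the other 3, by a gap whose share of the group's range exceeds Dixon's 95% critical value. Chance gives about 1 in 20 groups, and 126 groups were tested. Galnt4 in wild type replicate 3 read 9.59, with the others between 9.64 and 9.65. B4galnt1 in wild type replicate 2 read 8.39, with the others between 8.16 and 8.19, still below all knockout samples. Among the pathway genes, Pgm3 in knockout replicate 3 read 8.67 (others 8.53 to 8.54), Nagk, a GlcNAc kinase of the donor list, in knockout replicate 3 read 8.91 (others 8.98 to 8.99), Ugcg in knockout replicate 4 read 8.17 (others 8.31 to 8.33) and Muc13 in knockout replicate 3 read 11.47 (others 11.58 to 11.59).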

How the results depend on the processing

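The difference of Slc51a stayed between -6.83 and -6.72 under all alternatives, and -6.78 to -6.72 when 1 array was left out. Gcnt1 stayed past the threshold in every setting, at -3.59 to -3.42 with 1 array left out, -2.05 with the mean of its probe sets and -3.48 with the replicate number as a block. The number of enzymes higher in knockout, 14, became 9 with the mean of probe sets, 9 without the 3 arrays of lowest hybridization controls, 7 at a threshold of 0.01 and 1 at 1.5-fold or more, and was 10 to 13 with 1 array left out. The number lower, 11, became 3 at 1.5-fold or more and was 8 to 11 with 1 array left out. The 15 donor genes higher became 10 with cyclic loess, 11 with quantile normalisation, 17 with median centring and 11 to 13 with 1 array left out. The labels do not tie same-numbered samples to each other, and their deviations correlated above 0.1 in 3 of 4 pairs but not in the other (r = 0.22, -0.05, 0.11 and 0.16), so pairing was not assumed. With the replicate block 13 enzymes were higher, 8 lower and 14 donor genes higher, and the calls of St3gal1 (adjusted p = 0.0505), St6galnac4 (0.0531), Chst11 (0.0662), Chst13 (0.0734) and Papss2 (0.0714), of sulfate donor synthesis, were lost. Of the 25 enzymes past the threshold 13 kept direction and call under every other normalisation, probe set summary, variance model and choice of arrays at the threshold of 0.05, and of 28 pathway genes past it 17 did. Directions were followed for 65 genes: the named enzymes, the others that passed and the pathway genes that passed. Those that turned were all of genes that did not pass. B3gnt3 gave -0.012 with cyclic loess, -0.014 with array weights, -0.052 without the 3 arrays and -0.070 to 0.086 with 1 array left out (lowest without knockout replicate 4). St6galnac6 gave 0.018 without the 3 arrays. Chst14 gave -0.032 to 0.063 with 1 array left out (below 0 without knockout replicate 2 or wild type replicate 2). The remaining enzymes were not followed, and their direction can turn too. For B4galt7, which did not pass, the brightest probe set gave -0.04 and the other 0.17. Over all genes, cyclic loess called 2474 higher and 2710 lower, against 2924 and 2210. The cause of these changes was not tested. In the simulation, which changed only a small part of the genes, most changes of 0.25 were not recovered. Recovery can differ in these data, where 30.0% of genes passed. A signal near the floor has no measured lower end.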
